A study of Mus musculus with 4 samples.

Results

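The brain of mice in the late phase of experimental autoimmune encephalomyelitis (EAE) held a set of CD4+ T cells with Il17a RNA and no Ifng RNA, and these cells, here called Il17a+ Ifng- cells, are described below. They were selected on their own RNA counts: a brain cell was taken when it had at least 2 unique molecular identifiers (UMIs, 1 per captured RNA molecule) of Il17a, 0 of Ifng and at most 1 of Foxp3. The rule found 222 cells, 5.60% of the 3964 brain cells kept and part of 12123 cells kept in the whole series. Because Il17a, Ifng and Foxp3 chose them, and every other gene was read from the same cells, the expression values of these cells are a description and carry no test.

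EAE is an inflammation of the central nervous system brought on by immunization with myelin antigen. Wild-type C57BL/6 mice were used on day 60 after immunization, and CD4+ cells that were CD44+ and GITR-, which selects activated or memory T cells and leaves out most regulatory ones, were sorted from brain and from spleen. From each tissue 1 droplet RNA library and 1 T cell receptor (TCR) library were made with 5' chemistry, after loading 18718 brain and 38000 spleen cells. How many mice went into each library is not stated in the labels, all groups below share the same immunization, genotype and sort, and no group of healthy mice was analysed here.

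T helper 17 (Th17) cells make IL-17A and IL-17F, cytokines that act on epithelial, endothelial and glial cells and draw in neutrophils. Their differentiation is induced by IL-6 and TGF-β, and it is sustained by IL-1β and IL-23 through the receptors encoded by Il1r1 and Il23r. In EAE, Th17 cells enter the central nervous system in part through CCR6, and many of their descendants are known to switch from IL-17A to interferon-γ.

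The brain library had 4277 barcodes, of which 4143 passed the filters on genes, UMIs and mitochondrial RNA and 179 of these were removed for carrying more TCR chains than 1 cell should. The 8707 spleen barcodes gave 8159 kept cells in the same way. Kept cells had a median of 9844 UMIs in brain and 7159 in spleen. The RNA libraries shared 31 barcodes, 15 of which were kept in both, and none of these carried the same receptor in both. The barcodes of 2 Il17a+ Ifng- cells also occurred in spleen.

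Il17a+ Ifng- cells had a median of 11077 UMIs (range 1488 to 37901), against 9678 in the 3596 brain cells with 0 Il17a UMIs, here called Il17a-negative cells. Counts were summed over the cells of a group and scaled to the usual unit CPM, which sets the UMI total of each group to the same value. A gene was tested where the group with more of it had 10 CPM or more, and is called higher or lower where the ratio reached 1.5 in either direction and its exact 95% interval did not include 1. The intervals (conditional binomial, Clopper-Pearson) cover counting error only. With 1 library per tissue they say nothing of variation between animals.

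Il17a counts varied widely among the chosen cells, and their separation from Il17a-negative cells by this gene was set by the rule. The 222 cells held 6611 Il17a UMIs, from 2 to 221 per cell with a median of 16 and quartiles of 7 and 40. In brain, 368 of 3964 cells had at least 1 Il17a UMI (9.28%, exact binomial interval 8.40 to 10.2), against 11 of 8159 in spleen (0.135%). None of 123 brain cells with the invariant natural killer T (iNKT) receptor alpha chain TRAV11-TRAJ18 had an Il17a UMI at a median depth of 10380 UMIs, which allows a share of up to 2.44%. Free Il17a RNA was thus not detectable at this depth in those 123 cells of the same library.

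**Figure D1:**
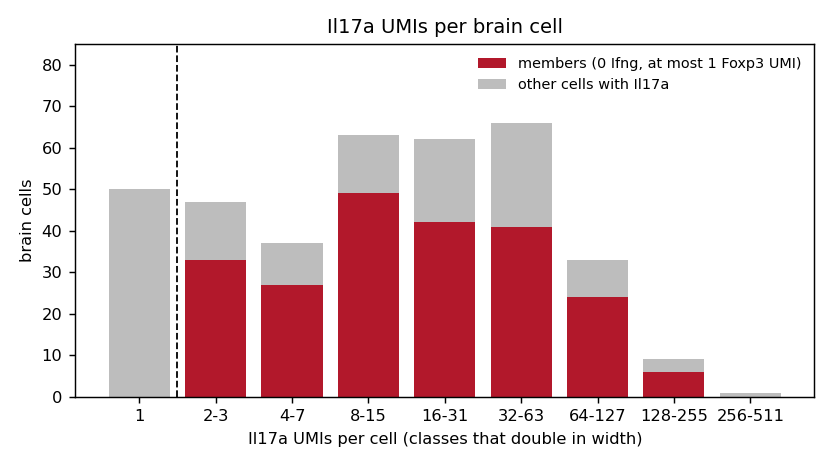
Number of brain cells (y axis) by Il17a UMIs per cell (x axis, classes that double in width); red, the Il17a+ Ifng- cells chosen by the rule (labelled members); grey, other cells with Il17a; dashed line, the threshold of 2 UMIs. Counts per cell reach 221 in the chosen cells, and 50 cells sit just below the threshold at 1 UMI.

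At the edge of the rule, 31 cells had exactly 2 Il17a UMIs and 16 had exactly 3, of which 24 and 10 had no Ifng UMI. Another 50 cells had exactly 1 Il17a UMI, of which 34 had no Ifng UMI. Among cells with 0 Ifng and at most 1 Foxp3 UMIs, the 33 cells with 1 Il17a UMI had 420 CPM of Il1r1, the 33 cells with 2 to 3 had 340 CPM and the 1798 cells with 0 had 70.0 CPM. The cells just outside the threshold had an Il1r1 level whose interval (354 to 496 CPM) overlapped that of the cells just inside it (284 to 404 CPM).

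The label was checked against marker genes. The sorted population's genes were level with the other brain cells: Cd4, the coreceptor, stood at 403 CPM against 332 in Il17a-negative cells, and 0 of the 5 listed CD4 T cell genes were higher or lower. Tnfrsf18, which encodes GITR, the protein the sort selected against, was read in 133 cells at 108 CPM against 175. The markers named for these cells, Il1r1 and Nrgn, were chosen with earlier results of these data known. Their levels thus describe the cells and are no check of the label. Il1r1 was at 427 CPM against 47.1 and was found in 187 of the 222 cells. Nrgn, which encodes neurogranin, a calmodulin-binding protein best known from neurons, was at 372 CPM against 35.5 but was found in only 65 cells. Other neuronal markers (8 genes, summed) came to 2.99 CPM, and 4 platelet genes, another source of Nrgn, to 0 CPM.

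Markers of CD8, natural killer and B cells were low or absent. The summed level of 5 CD8 and natural killer genes was 4.48 CPM against 57.9, with Cd8a, Ncr1 and Klre1 at 0. Cd79a, Cd79b and Ms4a1 of B cells were at 0, and so were Itgam, S100a8, S100a9 and Retnlg of myeloid cells. Of 3 tested microglial genes 1 was lower, Cx3cr1 at 7.47 CPM against 12.3, and 2 were neither higher nor lower. Ighm was at 36.2 CPM against 110. The most abundant genes of the myeloid, glial and endothelial lists were neither higher nor lower: Cst3 at 164 CPM against 152, Mbp at 137 against 169 and Pecam1 at 124 against 99.9. Trdc, the constant gene of the gamma-delta receptor, was at 0, while Trgc1 was at 30.3 CPM against 5.05 and Blk, a kinase known from IL-17-making gamma-delta cells, at 8.59 CPM against 0.522. A paired alpha-beta receptor was read from 199 of the 222 cells (89.6%), against 79.4% of Il17a-negative cells. The 17 cells with no receptor contig had Trac UMIs in 11 cells and no Trdc UMI. No cell carried the iNKT alpha chain.

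A joining segment recurred among the receptors of these cells, and receptors that use it are shown next. Clonotypes were defined by the V genes and CDR3 nucleotides of both chains, and numbered by how many Il17a+ Ifng- cells they hold. Of the 138 clonotypes with an Il17a+ Ifng- cell, 27 used the joining segment TRAJ23, and the CDR3 of their alpha chains all ended in the same 24 bases, in capitals below. These bases come from the segment itself: 139 of the 149 TRAJ23 clonotypes of brain without an Il17a+ Ifng- cell ended in them too, and 0 brain clonotypes of other joining segments did. The alpha CDR3 sequences, from the deposited contigs, 5′ to 3′, are shown for the TRAJ23 clonotypes among the 8 with most such cells, and for 3 others that also pair with TRBV20 or TRBV5:
Clonotype 1 alpha (TRAV7D-2): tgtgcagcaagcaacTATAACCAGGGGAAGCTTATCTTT
Clonotype 2 alpha (TRAV8-1): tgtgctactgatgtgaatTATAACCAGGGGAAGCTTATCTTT
Clonotype 6 alpha (TRAV7-3): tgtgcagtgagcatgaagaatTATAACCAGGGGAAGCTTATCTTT
Clonotype 7 alpha (TRAV14N-2): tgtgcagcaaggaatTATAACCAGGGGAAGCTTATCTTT
Clonotype 22 alpha (TRAV3N-3): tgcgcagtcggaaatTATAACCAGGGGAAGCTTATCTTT
Clonotype 126 alpha (TRAV7D-2): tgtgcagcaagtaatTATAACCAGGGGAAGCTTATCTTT
Clonotype 130 alpha (TRAV8-1): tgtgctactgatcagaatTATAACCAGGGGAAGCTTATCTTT

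Clonotypes 1, 7, 22 and 126 joined this alpha end to a TRBV20 beta chain, and clonotypes 2 and 130 to TRBV5. Clonotypes 22, 126 and 130 were shown because of these pairings. Among all 27 TRAJ23 clonotypes with an Il17a+ Ifng- cell, 6 paired with TRBV20 and 4 with TRBV5. Of all 138 clonotypes with such a cell, 13 used TRBV20 (9.42%) and 30 used TRBV5 (21.7%). The 153 TRAJ23 clonotypes with an Il17a-negative cell included 18 with TRBV20 and 15 with TRBV5. Whether TRAJ23 favours either pairing was not tested. The beta CDR3 sequences below show that the clonotypes share segments and not 1 beta chain, apart from clonotypes 1 and 122, which have the same alpha CDR3 and differ by 1 base of the beta CDR3:
Clonotype 1 beta (TRBV20): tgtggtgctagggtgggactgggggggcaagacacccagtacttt
Clonotype 122 beta (TRBV20): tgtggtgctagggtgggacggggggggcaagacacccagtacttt
Clonotype 126 beta (TRBV20): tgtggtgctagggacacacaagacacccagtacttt
Clonotype 7 beta (TRBV20): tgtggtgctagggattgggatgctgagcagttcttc
Clonotype 2 beta (TRBV5): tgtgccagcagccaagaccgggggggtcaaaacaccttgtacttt
Clonotype 130 beta (TRBV5): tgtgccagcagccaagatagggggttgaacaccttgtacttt
Receptors were not used by the rule beyond the limit on chains per cell. Clonotype 122 held 1 cell, and whether a single sequencing error set it apart from clonotype 1 was not tested.

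TRAJ23 was used by 27 of 138 clonotypes with an Il17a+ Ifng- cell (19.6%, exact binomial interval 13.3 to 27.2), by 153 of 2009 with an Il17a-negative cell (7.62%, interval 6.49 to 8.86) and by 267 of 6255 spleen clonotypes (4.27%). Among clonotypes of 1 brain cell the shares in the 2 brain groups were 17.8% and 6.8%, with intervals that did not overlap. Among larger ones they were 22.9% (11 of 48) and 12.5% (36 of 288), with overlapping intervals. Of these 48 clonotypes, 44 also held an Il17a-negative cell and so count on both sides. The order was thus clear only for clonotypes of 1 brain cell. Cells with both Il17a and Ifng used it in 16 of 42 clonotypes (38.1%), and cells with Ifng and no Il17a in 65 of 662 (9.82%). Read the other way, 27 of 176 brain TRAJ23 clonotypes held an Il17a+ Ifng- cell (15.3%), against 111 of 1959 other clonotypes (5.67%). Clonotypes can stand in more than 1 of these groups.

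Among beta chains, TRBV5 was used by 30 of 138 clonotypes (21.7%) against 9.16% of those with an Il17a-negative cell. TRBV20 was used by 39 of 199 cells (19.6%) against 7.42%, but by 9.42% of clonotypes against 5.92%, and clonotypes 1, 3 and 7, which use it, hold several cells each. In cells with both Il17a and Ifng, TRBV5 was used by 9 of 42 clonotypes (21.4%) and TRBV20 by 12 of 50 cells (24.0%). Segments of the duplicated TRAV7 and TRAV14 families have near-identical copies, so a TRAV name is less certain than a TRAJ name.

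**Figure D2:**
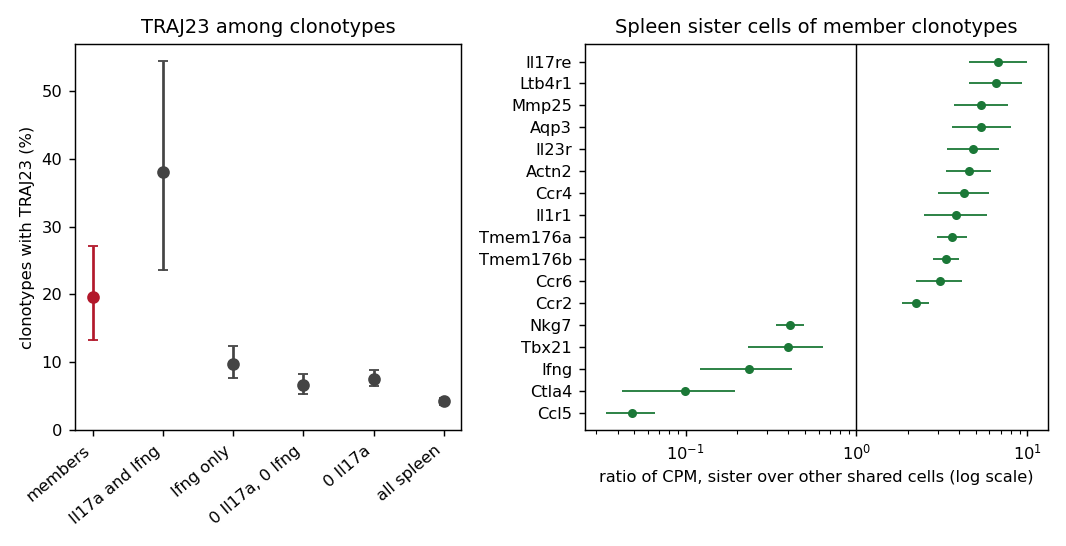
Left, share of clonotypes with TRAJ23 (y axis, %) in each group of cells (members are the Il17a+ Ifng- cells), with exact binomial 95% intervals. Right, ratio of CPM (log axis, with exact 95% intervals) in spleen cells whose clonotype holds an Il17a+ Ifng- cell in brain over spleen cells of other shared clonotypes; Il17re stands at 6.76 and Ccl5 at 0.0483.

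Many Il17a+ Ifng- cells belonged to expanded clonotypes, and those clonotypes were rarely made of such cells alone. Of 199 cells with a paired receptor, 70 were in clonotypes of at least 5 brain cells (35.2%, interval 28.6 to 42.2). The share was 22.0% in Il17a-negative cells (interval 20.5 to 23.5), 35.1% in cells with Ifng and no Il17a, and 13.2% in cells with neither. In cells with both Il17a and Ifng it was 38.0% (19 of 50, interval 24.7 to 52.8). Yet 116 of the 138 clonotypes had a single Il17a+ Ifng- cell, and the 5 clonotypes with most of them held 42 cells together. Of 48 clonotypes with at least 2 brain cells, only 2 consisted of Il17a+ Ifng- cells alone, 44 also held an Il17a-negative cell, 23 a cell with at least 2 Ifng UMIs and no Il17a, and 10 a cell with both cytokines. A cell with at least 2 Foxp3 UMIs was in 1 of the 138.

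The largest clonotypes show the mixture. Clonotype 1 had 48 brain cells, of which 12 were Il17a+ Ifng- cells, 5 had both cytokines and 21 had Ifng alone. Clonotype 2 had 17 brain cells with 10 Il17a+ Ifng- cells and 1 with Ifng alone. Clonotype 3 (TRAJ12, TRBV20) had 27 with 9 Il17a+ Ifng- cells, and clonotype 8 (TRAJ37, TRBV1) had 25 with 3. Clonotypes of similar size thus differed in how many of their cells met the rule. A cell counts as without Ifng when no UMI was read, so low Ifng in a shallow cell is counted as none.

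**Figure D3:**
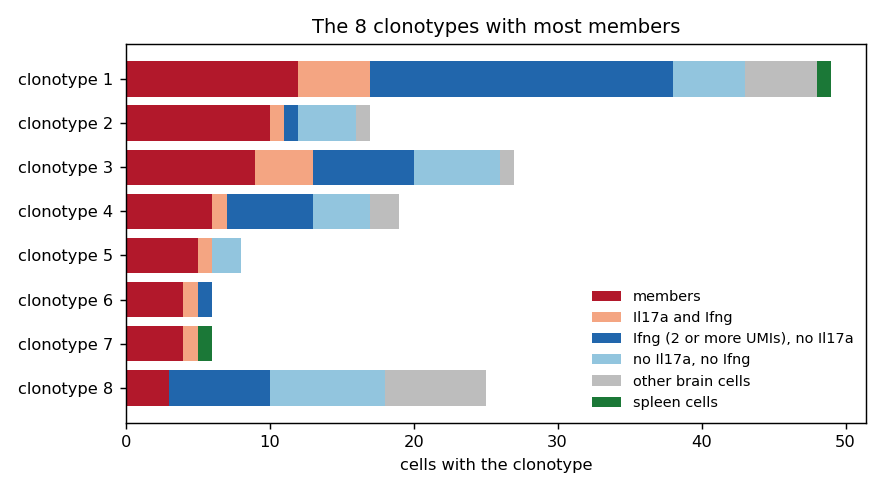
Cells (x axis) of the 8 clonotypes with most Il17a+ Ifng- cells, by RNA class; red, Il17a+ Ifng- cells (labelled members). Clonotype 1 has 12 red cells beside 21 with Ifng alone, and clonotype 2 has 10 beside 1.

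Sharing with spleen was seen for 25 of the 138 clonotypes (18.1%, interval 12.1 to 25.6). It was seen for 8.96% of the 2009 with an Il17a-negative cell and 14.5% of the 662 with an Ifng-only cell. Of the 42 clonotypes with a cell of both cytokines, 6 were found in spleen (14.3%, interval 5.43 to 28.5). By cell, 47 of 199 (23.6%) had a clonotype found in spleen, against 17.7% of Il17a-negative cells. Sharing depends on clonotype size. For clonotypes of 1 brain cell the shares were 5.56% and 5.93%, for 2 to 4 cells 41.0% and 24.8%, and for 5 or more 37.1% and 44.1%. The intervals of both groups overlapped in each size class. At 2 to 4 cells they were 25.6 to 57.9 (16 of 39 cells) and 21.1 to 28.8. Without clonotype 1 the overall shares were 18.7% and 16.9%, a smaller difference than with it. In spleen 5 cells met the same rule, with 2, 14, 7, 2 and 5 Il17a UMIs, and of these 5 only 2 had a paired receptor to compare. Neither of the 2 clonotypes was found in brain.

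Cytokine genes separated the Il17a+ Ifng- cells from the other brain cells in 1 direction. Of the 8498 genes tested against Il17a-negative cells, 621 (7.31%) were higher and 624 (7.34%) lower, with a median log2 ratio of -0.0048. Against that background, 7 of 9 tested cytokine genes were higher and 0 lower, with a median log2 ratio of 1.04. Il17f, the paralog of Il17a, was at 147 CPM against 1.54, a ratio of 95.5 (interval 72.0 to 129), and was found in 71 cells. Il22, which acts on epithelial cells, was at 140 CPM against 3.87. It came from 16 cells, and 1 of them gave 44.7% and 3 gave 87.5% of its UMIs, so its level describes a few cells.

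Further cytokine genes differed less. Tnfsf11, encoding RANKL, was at 348 CPM against 107 and found in 162 cells. Areg, encoding amphiregulin, an epidermal growth factor receptor ligand, was 3.59-fold and Lta, encoding lymphotoxin alpha, 2.05-fold higher. Csf2, which encodes GM-CSF, a cytokine needed for EAE, was at 37.4 CPM against 21.1, a ratio of 1.77 (interval 1.42 to 2.18), and was found in 42 cells. That call was lost with 1 cell per clonotype, where the ratio was 1.28. Tnf at 1.34 and Il2 at 0.884 were neither higher nor lower, and Il4, Il5, Il13 and Il24 had no UMI in the 222 cells.

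The receptors for the cytokines that sustain Th17 cells were partly higher. Of 11 tested receptor genes 5 were higher and 2 lower. Il1r1, the signalling IL-1 receptor, had a median of 372 CPM per cell with quartiles of 141 and 662, against a median of 0 in Il17a-negative cells, and a ratio of the sums of 9.07 (interval 8.40 to 9.78). Il1r2, the decoy IL-1 receptor, was at 194 CPM against 16.9 and Il23r at 209 against 24.2. Il17re, a receptor chain for IL-17C, was found in 156 cells at 153 CPM against 23.6. Il6ra at 16.8 CPM against 59.1 and Il6st at 6.35 against 42.2, the 2 chains of the IL-6 receptor, were lower. Il1rl1, the IL-33 receptor, was too low to be tested.

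With each cell thinned to 4000 UMIs, 64.6% of Il17a+ Ifng- cells had an Il1r1 UMI (84.2% unthinned), against 9.48% of Il17a-negative cells (15.2% unthinned) and 0.826% of iNKT cells. For Ccr6, the receptor for the chemokine CCL20, the thinned shares were 42.0%, 4.74% and 0 of 121. For this comparison 10 Il17a+ Ifng- cells and 327 Il17a-negative cells were left out as too shallow.

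Among 13 transcription regulators known from Th17 cells, 5 were higher and 0 lower, with a median log2 ratio of 0.48. Irf4 was at 202 CPM against 51.2, a ratio of 3.94 (interval 3.57 to 4.34), and was found in 151 cells. Bhlhe40 (1433 CPM against 644), Rora (1032 against 483) and Maf (191 against 99.6) were also higher. IRF4 is known to bind DNA together with BATF, and STAT3 relays the signals of IL-6 and IL-23. Batf at 1.2, Stat3 at 1.11, Hif1a at 1.39 and Ahr at 1.41 were neither higher nor lower.

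Further genes known from Th17 cells were higher in 10 of 11 tested cases, with a median log2 ratio of 2.17. Ccr6 was at 184 CPM against 17.0 and found in 129 cells. Ramp1, a coreceptor for the neuropeptide CGRP, was at 586 CPM against 104 and was found in 202 of 222 cells. Tmem176a and Tmem176b, overlapping genes for ion channel proteins of the endomembranes, were at 555 against 116 and 769 against 172 CPM, Tmem176b in 205 cells. Ltb4r1, the leukotriene B4 receptor, Aqp3, a water and glycerol channel, Serpinb1a, a protease inhibitor, and Actn2 were 3.27- to 5.60-fold higher. Abcb1a, a drug efflux pump, was the 1 gene of the list that was lower, at 0.343.

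Outside these lists the leading genes were Ablim3 (an actin-binding protein, 14.9-fold), Igfbp7 (a secreted growth-factor-binding protein, 12.5-fold), Pxdc1 (12.2-fold), Nrgn (10.5-fold, interval 9.63 to 11.4) and Sdc4 (a syndecan, 9.22-fold). They were not carried by all cells. Nrgn came from 65 cells of 32 clonotypes and clonotype 1 gave 17.5% of its UMIs. With 1 cell per clonotype its ratio was 19.5 (interval 16.8 to 22.7). Igfbp7 came from 74 cells, of which 47 also had Nrgn. Ablim3, Pxdc1 and Sdc4 were found in 80, 75 and 72 cells. Tnfsf8, encoding CD30 ligand, was found in 178 cells at 962 CPM against 216, with 8.2% of its UMIs from 1 cell.

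The plot of leading genes gives both comparisons, since 45.5% of Il17a-negative cells had an Ifng UMI. Against the 1798 cells with 0 Il17a, 0 Ifng and at most 1 Foxp3 UMIs, 809 of 8483 genes (9.54%) were higher and 658 (7.76%) lower. Il17f was then 48.6-fold, Il23r 5.45-fold and Ccr6 5.98-fold higher, while Nrgn was 17.2-fold and Igfbp7 17.3-fold higher. Of the genes called in the first comparison, 566 of the 621 higher and 471 of the 624 lower were called in this one as well.

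**Figure D4:**
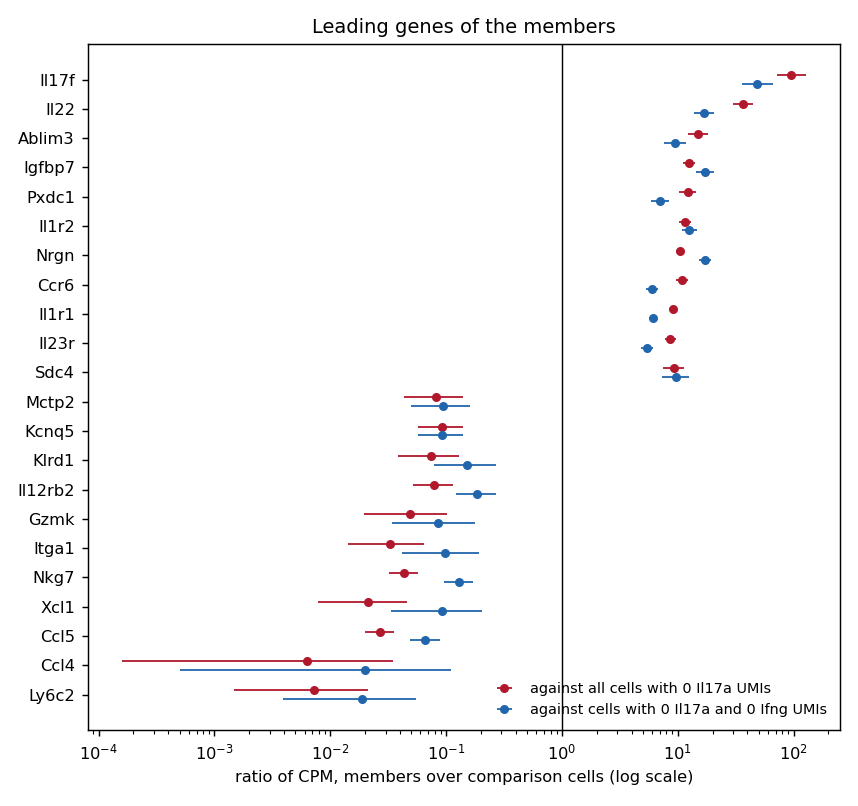
Ratio of CPM (x axis, log scale) for 11 of the 12 genes with the highest and 11 of the 12 with the lowest ratios in Il17a+ Ifng- cells (members), with exact 95% intervals, against all brain cells with 0 Il17a UMIs (red) and against those that also lack Ifng (blue). All 22 genes keep their side of 1, and the lower genes of the Th1 and cytotoxic lists lie nearer to 1 against cells without Ifng.

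Th1 and cytotoxic genes were lower, in cells that the rule had already picked for having no Ifng. Of 14 tested Th1 genes 10 were lower and 1 higher (median log2 ratio -2.01), and all 10 tested cytotoxic genes were lower (median -3.26). Tbx21, encoding the Th1 factor T-bet, was at 13.5 CPM against 76.9, and Il12rb2, the inducible IL-12 receptor chain, at 10.1 against 128. Nkg7, a cytotoxic granule protein, was found in 17 cells at 19.1 CPM against 441. Il18r1, the IL-18 receptor, was the 1 Th1-list gene that was higher, at 629 CPM against 393. Against cells that also lack Ifng, 8 of 13 Th1 genes and 8 of 10 cytotoxic genes were lower, with Tbx21 at 0.425 and Nkg7 at 0.130, closer to 1 than against all Il17a-negative cells.

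Chemokine ligand genes were lower in 5 of 6 cases. The fifth of them, Ccl1, was at 18.7 CPM against 95.2 but turned to a ratio of 2.51 against cells without Ifng, and 1 cell held 90% of its UMIs. In that comparison the chemokine list was divided, with 2 of 5 tested genes higher and 3 lower. Ccl5 was at 18.3 CPM against 684, found in 9 cells, of which 1 gave 46.9% of the UMIs. Ccl4 had 1 UMI in all 222 cells, a ratio of 0.00626 (interval 0.000158 to 0.0349), and Ccl3 had none. Xcl1 was at 2.24 CPM against 105. Ccl20, the CCR6 ligand known from Th17 cells, was found in 3 cells at 1.49 CPM, too low to be tested. Ly6c2, which shares most of its sequence with Ly6c1, had 3 UMIs in 2 cells, at 1.12 CPM against 156 (ratio 0.00718, interval 0.00148 to 0.0210).

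Genes that T cells use to leave tissue or to recirculate were lower in 12 of 15 cases, with a median log2 ratio of -1.76. Ccr7, the lymph node homing receptor, was at 30.3 against 129 CPM, Klf2, the factor that drives S1pr1, at 192 against 650, and S1pr1 itself at 69.9 against 144. Tcf7 at 0.746, S1pr4 at 0.963 and Satb1 at 0.884 were neither. Against cells that also lack Ifng, 14 of 15 were lower, with Ccr7 at 0.126.

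The tissue-residency list was divided. Of 18 tested genes 8 were higher and 3 lower. Cxcr6, a chemokine receptor of resident T cells, was at 560 CPM against 316 and found in 204 cells, Rgs1 at 1136 against 713, and Ccr8 at 172 against 74.2. Itgae, encoding CD103, stood at 10.1 CPM against 5.08 in 18 cells, and its call was lost under TMM scaling, after thinning, with 1 cell per clonotype and without clonotype 1. Itga1, encoding the CD49a integrin chain, was lower, at 2.99 against 90.8 CPM, and so were Xcl1 and Inpp4b. Cd69 at 1.22 was neither. Against cells that also lack Ifng, 11 were higher and 3 lower, with Cd69 at 1.51 and Itga1 at 0.0969.

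Genes of disease-transferring Th17 cells, a set known from transfer experiments, did not share a direction: of 14 tested, 5 were higher (Il23r, Il22, Csf2, Lag3 and Icos) and 5 lower (Ccl3, Ccl4, Ccl5, Gzmb and Tbx21), with a median log2 ratio of -0.06. Icos, a costimulatory receptor, was at 871 CPM against 453. Interferon-response genes were lower in 9 of 13 cases, with Isg15 at 65.4 CPM against 142 and Ifit3, which has the near-identical copy Ifit3b, at 16.8 against 61.2.

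Most activation and metabolism genes were neither higher nor lower. Of 12 S100, annexin and galectin genes 5 were higher, S100a4 most at 1476 CPM against 625, and 11 of 12 were higher against cells without Ifng. Of 12 glycolysis genes 3 were higher, among them Hk2 at 53.8 CPM against 13.4. Of 13 early-response genes 4 were higher and 1 lower, of 10 inhibitory receptor genes 2 and 1, and of 7 cell cycle genes 0 and 0. Of 15 heat shock and dissociation genes 1 was higher, Atf3 at 266 CPM against 78.4.

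Levels across cells with more Il17a followed different courses, as shown by the plot of levels by Il17a UMIs. Ramp1 was at 126, 348, 382, 451 and 672 CPM in cells with 0, 1, 2 to 3, 4 to 9 and at least 10 Il17a UMIs and no Ifng. Il17f was at 3.02, 12, 84.4, 92.8 and 177 CPM in the same order. Il1r1 was already at 420 CPM with 1 Il17a UMI and at 489 CPM with 10 or more, and Nrgn at 345 and 434 CPM. Thus Ramp1 and Il17f were higher in each class than in the one before, with overlapping intervals between some neighbours, whereas Il1r1 had no such order, with 287 CPM at 4 to 9 UMIs, below both its neighbours. Total UMIs per cell moved with the classes in part, with medians of 9275 at 0, 10119 at 1, 11501 at 4 to 9 and 10876 at 10 or more, and the part of depth was not tested. After thinning, Ramp1 was at 398 and 375 CPM in the classes of 1 and of 2 to 3 UMIs, and Il17f at 108 and 85.4 CPM in the classes of 2 to 3 and of 4 to 9, so neither gene kept its full order. Thinned Nrgn was at 250, 192, 317 and 440 CPM from 1 UMI on.

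**Figure D5:**
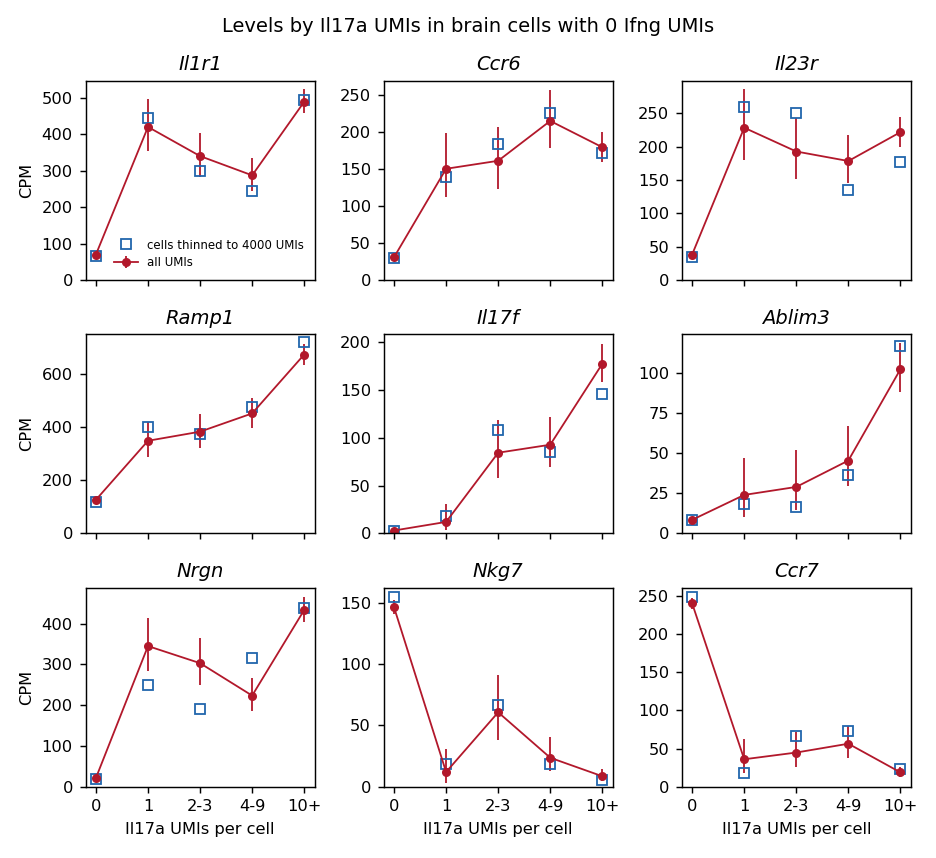
CPM (y axis) of 9 genes in brain cells with 0 Ifng and at most 1 Foxp3 UMIs, by Il17a UMIs per cell (x axis). Red points with exact binomial 95% intervals use all UMIs, and blue squares use cells thinned to 4000 UMIs. Ramp1 goes from 126 to 672 CPM across the classes, and Ccr7 from 240 to 18.9 CPM.

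Another comparison was with the 88 brain cells of at least 2 Il17a and at least 1 Ifng UMIs. They held 1426730 UMIs in all, against 36411907 in Il17a-negative cells, so fewer intervals can exclude 1 and the counts are not comparable with those above. Of 8464 genes, 283 (3.34%) were higher and 341 (4.03%) lower in Il17a+ Ifng- cells. None of the 13 Th17 regulators was called, with Irf4 at 202 against 180 CPM. Of genes known from Th17 cells, Ccr6 was higher, at 184 CPM against 64.5, a ratio of 2.85 (interval 2.28 to 3.6), with Ramp3 at 2.82, Il17f at 2.65 and Tnfsf8 at 2.30. Il23r was at 1.52, just past the threshold. On the lower side stood Csf2 at 37.4 CPM against 131 (0.285, interval 0.221 to 0.365), Il1r2 at 0.603, Egr1, an early-response gene, at 0.425, Havcr2, encoding the inhibitory receptor TIM-3, at 0.248, 9 of 13 Th1 genes and all 8 tested cytotoxic genes. Il1r1 at 1.31 and Nrgn at 0.705 were neither. The Il17a+ Ifng+ cells had a median of 13538 UMIs, and 32 of the 88 had no receptor contig against 17 of 222, and the part of depth or of doublets in these ratios was not tested.

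Against the 1290 cells with at least 2 Ifng UMIs and no Il17a, 611 of 8512 genes (7.18%) were higher and 633 (7.44%) lower. Ccr6 was at 184 CPM against 2.98, Il23r at 209 against 11.9 and Il1r1 at 427 against 29.7. Of 12 tested further Th17 genes 10 were higher, and 12 of 14 Th1 and 10 of 10 cytotoxic genes were lower. Ccr7, lower than in all Il17a-negative cells, was 1.74-fold higher here, and 3 of 11 recirculation genes were lower and 2 higher. Tnf at 0.879, Csf2 at 1.35 and Cxcr6 at 1.18 were neither.

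Several of these genes also differed within single clonotypes, where all cells have the same receptor. In the 6 clonotypes with at least 3 Il17a+ Ifng- and 3 Il17a-negative cells, levels were compared as log2(CPM + 10). Il17f was higher in the Il17a+ Ifng- cells of 6 of 6, with a median difference of 1.75. In clonotypes 2, 8 and 9 it was read in 1 such cell each, so these signs rest on few UMIs. Irf4 and Tmem176a were also higher in 6 of 6. Il1r1, Il23r, Nrgn, Ccr6 and Ramp1 were higher in 5 of 6. In clonotype 3, Nrgn (284 against 283 CPM) and Il23r (90.3 against 89.2 CPM) were nearly level and still count as higher. Klrd1, encoding the natural killer receptor chain CD94, and Tbx21 were lower in 5 of 6 and higher in none. Not all genes kept the direction of the whole comparison: Pxdc1 was higher in 2 and lower in 3 of the 6 (median difference -0.08), and Cxcr3, a Th1 chemokine receptor with an overall ratio of 0.354, was higher in 4 and lower in 2. In clonotype 1, Il23r was at 143 against 8.12 CPM, Il1r1 at 668 against 73.1, Klrd1 at 0 against 276 and Nkg7 at 7.51 against 1092. Of its 28 Il17a-negative cells, 21 had at least 2 Ifng UMIs and 5 had 0 Ifng and at most 1 Foxp3 UMIs. Such cells without Ifng were 6 of 13 in clonotype 3, 4 of 11 in clonotype 4 and 8 of 22 in clonotype 8. In these clonotypes the comparison is mainly with cells that express Ifng. In clonotypes 2 and 9 they were 4 of 5 and 5 of 5. In clonotype 9, Tbx21 and Klrd1 were at 0 on both sides. There Il1r1, Il23r, Nrgn and Ramp1 were lower in the Il17a+ Ifng- cells, and Il17f, Irf4, Tmem176a and Ccr6 higher. The part of Ifng in these signs was not tested.

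The clonotypes also differed among themselves in the Il17a+ Ifng- cells. Nrgn was at 1134 CPM in clonotype 1 (7 of 12 cells), 1374 in clonotype 2 (3 of 10 cells) and 0 in clonotype 5 (0 of 5 cells). Il22 was at 2077 CPM in 2 of 9 cells of clonotype 3 and had no UMI in the other 7 of the 8 clonotypes with most such cells. Ramp1, in contrast, was found in cells of all 8, at 457 to 1350 CPM.

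Cells of the same clonotypes that had no Il17a still carried part of the Th17 profile. The 181 Il17a-negative brain cells of 44 such clonotypes were set against 2608 Il17a-negative cells of 1942 clonotypes in which no cell had an Il17a UMI. Of 8487 genes, 644 (7.59%) were higher and 488 (5.75%) lower. Il1r1 was at 153 CPM against 34.6, a ratio of 4.43 (interval 3.87 to 5.05), Il1r2 at 75.5 against 8.82, Nrgn at 167 against 24.4 and Ccr6 at 55.1 against 15.2. Of 11 further Th17 genes 8 were higher, and 13 of 15 recirculation and 11 of 13 interferon-response genes were lower. By construction the 44 clonotypes have at least 2 brain cells each, while 1721 of the 1942 have 1 brain cell. The part of clonotype size in these ratios was not tested. Th1 genes were mixed, 3 of 13 higher and 4 lower: Tbx21 at 1.14, Nkg7 at 1.25 and Ifng at 1.1 were neither, Ccl5 was lower at 0.113, and the cytotoxic gene Klrd1 was higher at 2.46. At least 1 Ifng UMI was found in 51.9% of them (interval 44.4 to 59.4) and in 46.7% of the comparison cells. Penk, encoding proenkephalin, was at 145 CPM against 4.08, but clonotype 25 gave 59.1% of its UMIs and 92% of those of Xcl1.

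Spleen cells of these clonotypes, from a library that the rule did not use, shared a part of the profile without the cytokines. They were 46 cells of 25 clonotypes, set against 348 spleen cells of 155 clonotypes shared with brain in which no brain cell had Il17a. Of 8966 genes, 415 (4.63%) were higher and 763 (8.51%) lower. Il23r was at 150 CPM against 31.2, a ratio of 4.80 (interval 3.37 to 6.81), Il1r1 at 96.7 against 25.4 and Ccr6 at 160 against 52.3. Il17re at 6.76, Ltb4r1 at 6.52 and Aqp3 at 5.39 were the highest of the Th17 lists, and 8 of 11 further Th17 genes were higher. Il17a, Il17f, Il22 and Nrgn had no UMI in these 46 cells, where a count of 0 allows up to 7.63 CPM.

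Other lists had another direction in spleen. The difference between the tissues was not tested. Of the 13 Th17 regulators 2 were higher and 5 lower. Irf4, with 1 UMI, was lower at 0.103 (interval 0.00258 to 0.598), Ctla4 at 0.0987, Pdcd1 at 0.126 and Tox at 0.107, and 9 of 10 follicular helper and 9 of 10 inhibitory receptor genes were lower. Of 12 S100, annexin and galectin genes 10 were higher, with Vim at 3101 CPM against 1364, and Ccr2, a receptor for inflammatory chemokines, was at 415 against 187. Th1 genes were lower in 7 of 11 cases, with Tbx21 at 0.398, Ccl5 at 0.0483 and Ifng at 0.236. The comparison cells had a median of 6580 UMIs and 1 clonotype gave 60 of the 348, while the 46 cells had a median of 8584 UMIs and at most 5 per clonotype. Thinned to 4000 UMIs, 39.1% of the 46 cells had an Ltb4r1 UMI against 6.21%, and 69.6% had Tmem176b against 20.5%. Clonotype 9 gave 50.8% of the Ccr6, 39.0% of the Il23r and 28.9% of the Il1r1 UMIs of the 46 cells.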

How the data were processed

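The brain and spleen RNA tables hold the authors' deposited counts, whole UMIs of each gene in each barcode without normalisation, and the TCR tables hold contigs with V, J and CDR3 calls. Per the submitters' processing notes the tool was Cell Ranger 9.0.0. Several genome builds are listed there with no role, and coordinates are not printed. Cells needed at least 500 genes, 1000 UMIs, at most 10% mitochondrial UMIs, at most 1 productive TRB and 2 productive TRA chains. No doublet caller was run: doublets were removed through the receptor chains alone. A clonotype needed 1 TRB and at least 1 TRA chain, taking the TRA with most UMIs.

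Counts were summed per group with Python 3.11.15, numpy 2.4.6, pandas 2.3.3 and scipy 1.17.1; TMM factors came from edgeR 4.0.16 in R 4.3.3. The ratio and its call were tested on simulated sums with counting error only, which is what the intervals assume. Differences between cells or clonotypes were not simulated, so the calls were not tested against them. The cells and gene lists were chosen with earlier results of these data known. Named genes were the markers Il17a, Il1r1 and Nrgn, the 12 highest and 12 lowest by the interval bound nearest 1 among genes of at least 50 CPM (leaving out genes of antigen receptors, ribosomes, mitochondria, haemoglobin, the sex chromosome markers and unnamed models), up to 4 genes per list, and the 8 clonotypes with most chosen cells; other names were chosen after their values were seen. Cd163l1 and Znf683 had no matching symbol, and the duplicated symbol Aldoa was not used. A few genes covered by these rules are not reported here.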

Additional observations from a re-analysis of the deposited data

How the results depend on the processing

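The counts against Il17a-negative cells, 621 higher and 624 lower, moved with the threshold: at least 50 CPM gave 276 and 197, at least 1 CPM 1037 and 1055, and a ratio of at least 2 gave 300 and 267, since these settings test or call fewer or more genes by construction. Under the other 8 planned settings they were 572 to 809 and 612 to 671. The genes called were in part others. Fewest were shared after thinning to 4000 UMIs, 488 of the 621 higher and 423 of the 624 lower. With 1 cell per clonotype 518 and 458 were shared. Counting clonotypes of at least 2 brain cells as expanded gave 54.8% against 39.8% of Il17a-negative cells. Ccl1, a chemokine, turned from 0.196 to 2.51 when the comparison cells also lacked Ifng; 1 cell held 90% of its UMIs. Of 80 genes followed, that setting kept the call of 75 and 1 cell per clonotype that of 77. Of other listed genes, Gzma lost its call with 1 cell per clonotype (0.229) and Klrk1 against cells without Ifng (0.673), where Tnf (2.12), Lgals3 (1.51) and Mki67 (1.88) became higher. With 1 cell per clonotype the ratios of Ccl5 (0.00435), Ly6c2 (0.00316), Itga1 (0.0169) and Nkg7 (0.0260) lay further from 1 and that of Ccl4 (0.0513) nearer to 1, each by over 1.5 times.

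The settings that leave out the largest clonotype among the spleen or brain relatives, and those for TRAJ23 and joined TRBV calls, were chosen after seeing the data. They gave 442 or 443 genes higher and 677 or 815 lower in spleen, 632 and 498 in brain, and TRAJ23 shares of 19.8% to 20.0%. No paired analysis was possible because each tissue has 1 library. Depth limits genes under 10 CPM and all 46 spleen cells.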

Other observations

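A few genes with roles outside T helper differentiation were also higher in Il17a+ Ifng- cells than in Il17a-negative brain cells. Hlf, a transcription factor of the PAR bZIP family, was at 107 CPM against 22.2 and was found in 125 of 222 cells, and Nr1d1, encoding the clock repressor REV-ERBα, was at 54.2 against 11.5. Smox, encoding spermine oxidase, was at 166 against 32 CPM, Dhrs3, a retinaldehyde reductase, at 57.9 against 8.32, and Plcb4, a phospholipase C, at 213 against 44.9. Kcnmb4, a potassium channel subunit, was at 117 against 24.8 CPM in 143 cells. Hlf, Nr1d1, Plcb4 and Kcnmb4 were higher in the spleen relatives as well, at ratios of 3.91, 3.09, 3.44 and 2.55, whereas Smox at 1.37 was neither.

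Nrgn, Igfbp7 and Penk were read in overlapping cells. Of 65 Il17a+ Ifng- cells with Nrgn, 47 had Igfbp7 (72.3%), and these were 63.5% of the 74 cells with Igfbp7. Penk was found in 17 cells, of which 14 had Igfbp7 and 12 had Nrgn, and 1 cell gave 50.7% of the Penk UMIs. Il22 was found in 16 cells, all with Il1r1 and 3 with Nrgn. These cells share a library and differ in depth, and no test was made.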
